A study of Homo sapiens with 6 samples.

Results

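The 10 immediate-early and stress-response genes were followed with 1 probe each on Illumina bead arrays, in OCM1A cells sorted by flow cytometry into ABCB1-positive and ABCB1-negative fractions. The 10 probes were chosen by identifier out of 24526 on the array, and stand for the transcription factor genes FOS (ILMN_1669523), FOSB (ILMN_1751607), JUN (ILMN_1806023), ATF3 (ILMN_2374865), EGR1 (ILMN_1762899), KLF6 (ILMN_1737406) and MYC (ILMN_2110908), and for DUSP1 (ILMN_1781285), ZFP36 (ILMN_1720829) and IER3 (ILMN_1682717). For 8 of the 10, the platform annotation gives the same gene; the KLF6 and IER3 probes take their gene names from the choice of probes itself. OCM1A cells are an established human line that the labels trace to a uveal melanoma, and ABCB1 (P-glycoprotein or MDR1) pumps a wide range of drugs out of cells. Cells were grown in RPMI-1640 with serum, ABCB1-positive cells were found with a commercial MDR1 shift assay, and both fractions went through the cell sorter into TRIzol. The 6 arrays are 3 ABCB1-positive and 3 ABCB1-negative samples, numbered 1 to 3 in each group, from 3 independent shift assays, and samples of equal number are called a pair below. All samples share 1 line and had all been sorted, and no unsorted sample was analysed here, so any change that staining and sorting brought to both fractions alike was not measured.

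Immediate-early genes are transcribed within minutes of a stimulus without new protein synthesis, and their mRNAs decay fast. Growth factors, stress and mechanical handling act on them through MAP kinases, serum response factor and CREB, and their products (the AP-1 proteins FOS, FOSB, JUN and ATF3, and the factors EGR1, KLF6 and MYC) set off the next wave of transcription. DUSP1, a MAP kinase phosphatase, and ZFP36 (tristetraprolin), which promotes decay of mRNAs with AU-rich elements, damp the response. The genes are known to rise when tissues are dissociated or cells are sorted, and melanoma cells with an active MAP kinase pathway can also keep some of them high.

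The sequence before the start of 5 of these genes is shown. FOS and DUSP1 were taken because DUSP1 was the member most like FOS over the arrays. EGR1 was taken as a textbook target of serum response factor, and JUN and ZFP36 as the members whose fractions did not overlap. Each stretch holds the 250 bases before the RefSeq start (GRCh38.p14), 5′ to 3′ on the gene's strand. Capitals mark matches, on either strand, to the CArG box of serum response factor or to TGACG, the core of the cyclic AMP response element.
FOS, chr14:75278578-75278827, plus strand: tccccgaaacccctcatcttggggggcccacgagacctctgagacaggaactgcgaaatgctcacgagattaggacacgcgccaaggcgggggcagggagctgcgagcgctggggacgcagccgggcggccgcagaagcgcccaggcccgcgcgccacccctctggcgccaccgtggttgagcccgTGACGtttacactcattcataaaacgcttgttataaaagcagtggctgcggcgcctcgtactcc
DUSP1, chr5:172771196-172771445, minus strand: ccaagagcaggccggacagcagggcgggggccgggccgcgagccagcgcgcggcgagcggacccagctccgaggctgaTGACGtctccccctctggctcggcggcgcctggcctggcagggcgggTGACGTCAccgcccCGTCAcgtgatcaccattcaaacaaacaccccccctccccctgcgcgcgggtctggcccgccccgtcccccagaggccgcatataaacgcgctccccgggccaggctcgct
EGR1, chr5:138465229-138465478, plus strand: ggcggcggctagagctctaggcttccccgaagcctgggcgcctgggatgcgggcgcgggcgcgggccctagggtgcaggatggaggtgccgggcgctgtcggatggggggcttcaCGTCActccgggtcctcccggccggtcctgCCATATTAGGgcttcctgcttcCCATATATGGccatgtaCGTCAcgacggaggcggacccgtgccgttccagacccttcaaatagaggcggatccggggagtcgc
JUN, chr1:58784048-58784297, minus strand: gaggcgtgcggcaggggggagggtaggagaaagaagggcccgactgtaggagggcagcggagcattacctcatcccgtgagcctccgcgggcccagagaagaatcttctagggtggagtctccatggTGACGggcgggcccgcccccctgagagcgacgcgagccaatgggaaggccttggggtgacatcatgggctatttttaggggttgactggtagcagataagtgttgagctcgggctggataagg
ZFP36, chr19:39406597-39406846, plus strand: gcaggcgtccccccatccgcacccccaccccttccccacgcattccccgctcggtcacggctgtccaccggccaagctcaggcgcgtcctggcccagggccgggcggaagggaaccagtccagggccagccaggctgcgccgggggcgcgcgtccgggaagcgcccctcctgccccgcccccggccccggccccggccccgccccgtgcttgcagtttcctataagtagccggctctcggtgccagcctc
FOS held 1 TGACG match, 64 bases before its start, and DUSP1 held 4, of which a pair on opposite strands overlap. EGR1 held 2 CArG boxes and 2 TGACG matches. JUN held 1 TGACG match, and ZFP36 held none of the motifs searched. TGACG was found in 21.2% of 35116 promoter windows of the same length and the CArG box in 1.16%, while TGANTCA (AP-1, in 6.57%) and GCGTGGGCG (EGR, in 0.72%) matched none of the members' windows. Only exact matches were counted, so longer or variant forms, such as tgacatca in the JUN stretch, were not marked. Windows were at hand for 8 of the 10 genes. Sequence beyond these 250 bases was not searched, so the lack of a CArG box here, as for FOS, does not mean that the gene has none. A match describes these letters only and is not a measured binding site.

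Of the 10 members, all passed the detection filter, with a detection p under 0.05 on 6 of 6 arrays. In the comparison of positive with negative cells, 1 member (JUN) was higher and 2 (IER3 and ZFP36) were lower in limma with the replicate number as a block, at an adjusted p under 0.05 over all 13186 tested probes. That is 30% of the members, against 20.3% of all tested probes called in either direction (11.1% higher and 9.2% lower), so the count lay near the background. The other 7 did not pass. The median log2 difference of the 10, positive minus negative, was 0.05, and that of all tested probes -0.02. The median absolute difference was 0.12 for the members and 0.21 over all tested probes. Without the block, 0 of the 10 passed in limma, 2 had an unadjusted p under 0.05, and 5.15% of all tested probes were called.

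**Figure D1:**
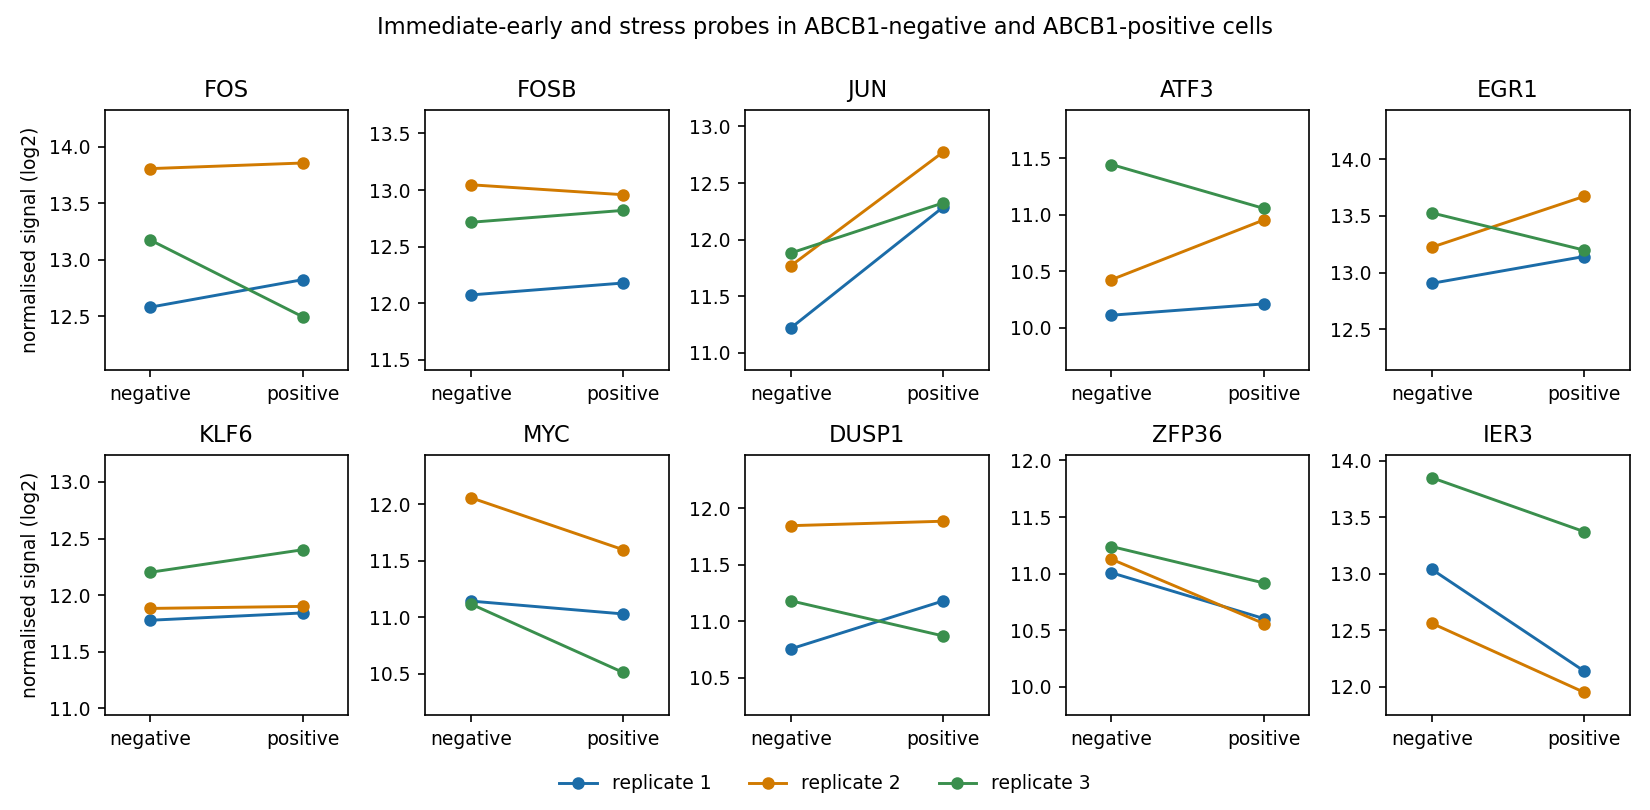
Normalised signal (log2, vertical axis, the same height of scale in every panel) of each of the 10 probes in the ABCB1-negative and ABCB1-positive array of each replicate number; lines join the arrays of a pair. The positive value is the higher one in all 3 pairs for JUN and, by small steps, for KLF6. It is the lower one in all 3 for IER3, ZFP36 and MYC. For FOS, MYC and DUSP1 the line of replicate 2 lies above the others, and for FOSB that of replicate 1 lies below them.

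Among the AP-1 genes, JUN, a partner with which FOS proteins dimerise, was higher in ABCB1-positive cells. Its normalised signal on the log2 scale was 12.29, 12.77 and 12.32 in positive replicates 1 to 3 and 11.22, 11.77 and 11.88 in negative replicates 1 to 3. All 3 positive values lay above all 3 negative values, which held for 2 of the 10 members (with ZFP36, where the positive values lay below) and for 27.2% of all tested probes in either direction. The log2 difference was 0.84 ± 0.15 (SE, n = 3 pairs, limma adjusted p = 0.00704), or 1.79-fold. Every SE of a difference and every 95% interval here is limma's moderated one, which borrows variance across all tested probes. It is not the spread of the 3 pairs alone and can be smaller. By pair the difference was 1.07, 1.00 and 0.44. On the linear scale, the probe's deposited signal averaged 3357 ± 1323 across the negative and 5490 ± 703 across the positive arrays (SD, n = 3 each). JUN passed again in limma without any one number, at adjusted p-values of 0.0197, 0.0148 and 0.000936 without numbers 1, 2 and 3. The limma adjusted p of JUN without the block was 0.0684. Probes of JUNB and JUND, from the list of other immediate-early genes below, gave log2 differences of 0.09 and -0.09. Neither passed (limma adjusted p = 0.712 and 0.664).

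FOS and FOSB, Fos family members that pair with JUN, gave no difference past the threshold. FOS read 12.82, 13.86 and 12.50 in positive and 12.58, 13.81 and 13.17 in negative replicates 1 to 3 (log2). The highest values of both fractions were those of replicate 2, and the groups overlapped almost fully. The log2 difference was -0.13 ± 0.18 (SE, n = 3 pairs, limma adjusted p = 0.644), with a limma 95% interval from -0.53 to 0.28. By pair the difference was 0.24, 0.05 and -0.68, and that of pair 3 lay outside the interval. The interval gives mean changes of FOS that these pairs do not exclude in this fit, and it is not a limit of detection. FOSB read 12.18, 12.96 and 12.82 in positive and 12.07, 13.05 and 12.72 in negative arrays. Its difference was 0.04 ± 0.11 (SE, limma adjusted p = 0.824, 95% interval from -0.22 to 0.30), and no pair moved by more than 0.11. ATF3, a stress-induced factor of the ATF/CREB family, read 10.21, 10.95 and 11.06 in positive and 10.11, 10.43 and 11.44 in negative arrays. It was higher in pairs 1 and 2 and lower in pair 3, and its mean difference was 0.08 ± 0.17 (SE, limma adjusted p = 0.772). A second probe annotated to ATF3, ILMN_1661109, was detected on 0 of the 6 arrays, so it gives no second reading. JUN differed between the fractions while the Fos genes measured beside it gave differences nearer 0, but the difference between JUN and FOS was not itself tested.

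EGR1, a zinc finger factor induced through MAP kinase and serum response factor, ranged from 12.90 to 13.53 in negative and from 13.14 to 13.67 in positive arrays. Its log2 difference was 0.12 ± 0.16 (SE, n = 3 pairs, limma adjusted p = 0.631), with 0.24 and 0.45 in pairs 1 and 2 and -0.33 in pair 3. KLF6, a Krüppel-like factor, ranged from 11.78 to 12.20 in negative and from 11.84 to 12.40 in positive arrays. KLF6 was higher in the positive array of each pair, by 0.06, 0.02 and 0.20, and its difference was 0.09 ± 0.11 (SE, limma adjusted p = 0.585). The second KLF6 probe, ILMN_1735014, gave 0.10 ± 0.12 (SE, limma adjusted p = 0.59), a near-equal reading from a probe that the platform annotation assigns to KLF6. MYC, the growth-promoting factor, read 11.03, 11.60 and 10.51 in positive and 11.14, 12.06 and 11.12 in negative arrays. It was lower in the positive array of each pair, by -0.11, -0.46 and -0.60, and its mean change of -0.39 ± 0.13 (SE, limma adjusted p = 0.0665) missed the threshold.

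Of the genes that damp or follow the response, IER3 and ZFP36 were lower in ABCB1-positive cells and DUSP1 was not. IER3 encodes a short-lived protein linked to cell survival, and it read 12.14, 11.95 and 13.37 in positive and 13.04, 12.56 and 13.85 in negative replicates 1 to 3. Replicate 3 was the highest in both fractions, so the groups overlapped although every pair fell, by -0.90, -0.61 and -0.48. The log2 difference was -0.66 ± 0.12 (SE, n = 3 pairs, limma adjusted p = 0.00907), or 1.58-fold lower. This call was lost without the block (limma adjusted p = 0.42), and also in fits that keep the pairing. The limma adjusted p was 0.0947 with the number as a random block, 0.0745 without number 1, 0.114 with no scaling and 0.0633 on the deposited scaled signals. ZFP36 read 10.60, 10.56 and 10.92 in positive and 11.01, 11.13 and 11.24 in negative arrays, with no overlap. It fell by 0.43 on the log2 scale, or 1.35-fold (SE 0.11, n = 3 pairs, limma adjusted p = 0.0316). The adjusted p of ZFP36 lies close to the threshold and passed it in 8 of 23 other fits. It was 0.14 without the block, 0.162 without number 1, 0.0997 without number 2 and 0.0642 on the deposited scaled signals. DUSP1 read 11.18, 11.89 and 10.87 in positive and 10.76, 11.85 and 11.18 in negative arrays, and its pairs moved by 0.42, 0.04 and -0.31. Its mean difference was 0.05 ± 0.15 (SE, limma adjusted p = 0.838).

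**Figure D2:**
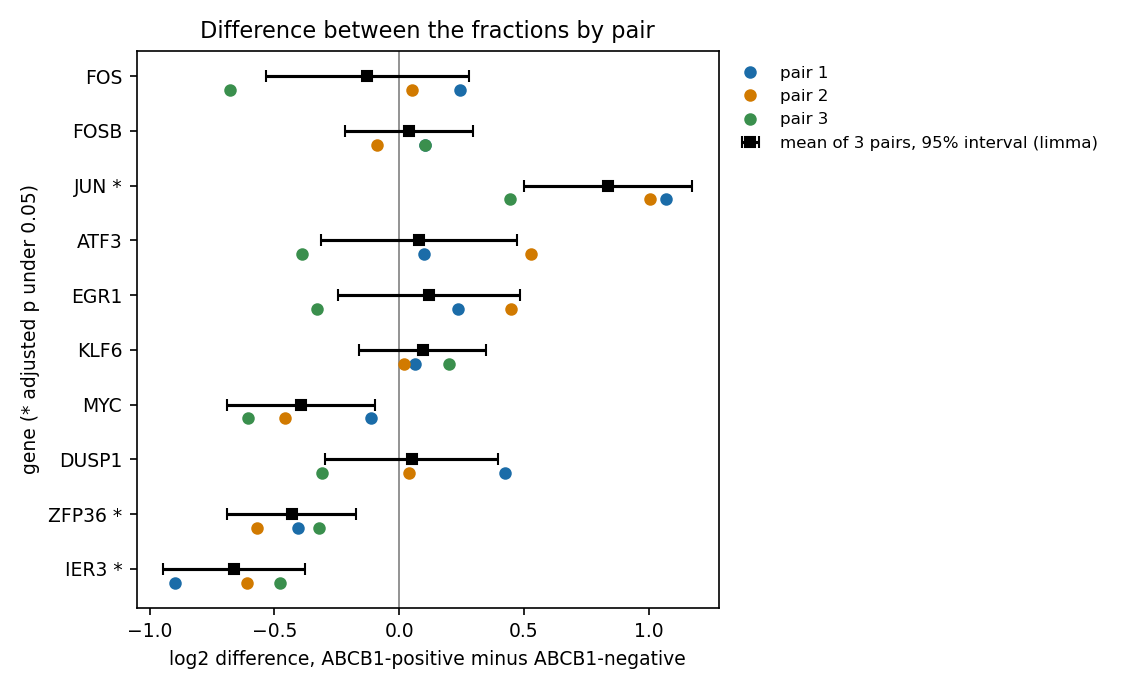
Log2 difference (horizontal axis, positive minus negative) of each of the 10 genes: black squares are the mean of 3 pairs with limma's 95% interval, and coloured points are the single pairs. JUN and KLF6 lie to the right of 0 in all 3 pairs, and MYC, ZFP36 and IER3 to the left in all 3. FOS, ATF3, EGR1 and DUSP1 lie right of 0 in pairs 1 and 2 and left of it in pair 3.

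Pair 3 ran the other way from pairs 1 and 2 for 4 members. FOS, ATF3, EGR1 and DUSP1 were higher in the positive array of pairs 1 and 2 and lower in that of pair 3, by -0.68, -0.39, -0.33 and -0.31. The share of all tested probes with this same pattern was not counted, so these 4 have no background to be read against. Of the 10 members, 7 were higher in the positive array of pair 1, 6 in pair 2 and 3 in pair 3, where the shares over all tested probes were 50.2%, 50.3% and 47.6%. Pair 3 also had the smallest difference of ABCB1 itself, 1.02 against 1.55 and 2.15 in pairs 1 and 2. The part of this in the members' values was not tested.

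The members varied more with the replicate number than with the fraction. This comparison was chosen after the data were seen. Of the variation of each probe over the 6 arrays, the number took a median of 81.6% in the 10 members and 44.1% over all tested probes, and the fraction took 4.96% and 27.1%. The number has more degrees of freedom than the fraction, so it takes the larger share on average even where neither has an effect. The shares over all tested probes are therefore the background for those of the members. FOSB is the extreme, with 98.2% for the number and 0.30% for the fraction, and KLF6 (92.6%), DUSP1 (87.9%), FOS (85.4%) and ATF3 (84.4%) follow. MYC and IER3 took 78.8% and 73.9% from the number, and EGR1 52.5%. JUN and ZFP36 were the exceptions among the 10, with 19.2% and 22.9% for the number and 72.6% and 73.0% for the fraction. On the deposited scaled signals, which were not quantile normalised, the median share of the number was 78.4% in the members and 41.4% over all tested probes. It was 67.4% and 39.6% with median scaling. With no scaling between arrays it was 45.5% and 35.0%, so most of the gap between the members and all tested probes was lost there.

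In limma's F test of the replicate number, 6 of the 10 members passed at an adjusted p under 0.05 (FOS, FOSB, ATF3, MYC, DUSP1 and IER3, from 0.0173 to 0.0403), against 9.56% of all tested probes. This count depended on the scaling, since it was 6 with neqc, 1 with median scaling, 2 with no scaling and 0 on the deposited scaled signals, where limma gave 6 members an unadjusted p under 0.05 and called 257 of 13186 probes. It was 2 without number 2, when 144 of all tested probes passed. The numbers did not act alike on the members. The mean of the pair on the log2 scale was highest in pair 2 for FOS (13.83, against 12.70 and 12.84 in pairs 1 and 3), DUSP1 (11.87, against 10.97 and 11.03) and MYC (11.83, against 11.09 and 10.82), and FOSB was also highest there (12.13 and 12.77 in pairs 1 and 3). It was highest in pair 3 for IER3 (13.61, against 12.59 and 12.26) and ATF3 (11.25, against 10.16 and 10.69). The members thus did not rise and fall as 1 block over the 3 assays. Slide, position and scan time were not analysed here, and assay and array handling cannot be told apart within a replicate number.

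**Figure D3:**
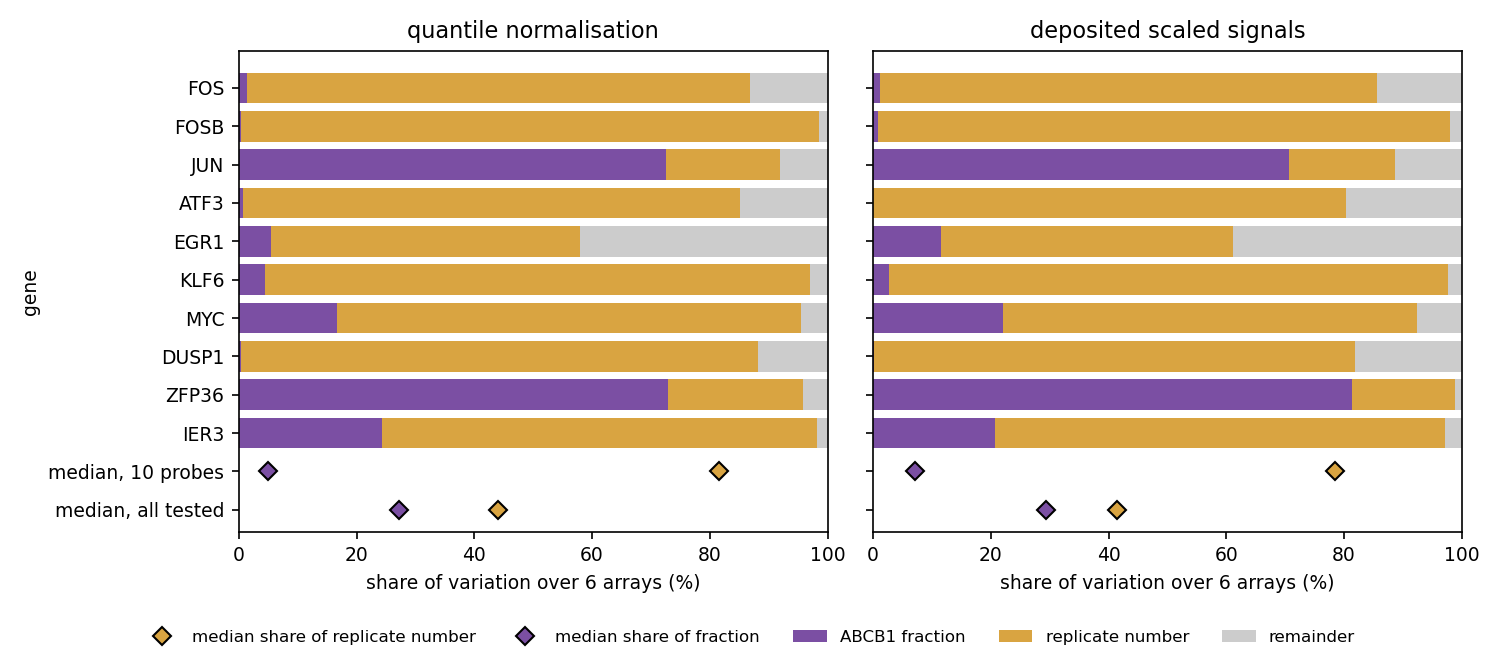
Share of each probe's variation over the 6 arrays (horizontal axis, %) taken by the ABCB1 fraction, the replicate number and the remainder, after quantile normalisation (left) and in the deposited scaled signals (right); diamonds are the median shares in the 10 probes and in all tested probes. In both panels the number takes the largest share for every member except JUN and ZFP36.

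Likeness between members is a description over 6 arrays that share pairs and the quantile normalisation. DUSP1 was the member most like FOS (Pearson r = 0.98, n = 6 arrays), followed by MYC (0.88), FOSB (0.69) and EGR1 (0.67). KLF6 (-0.31), IER3 (-0.47) and ZFP36 (-0.07) had an r below 0 with it. JUN and ZFP36 had the lowest r of the 45 pairs of members, -0.70. They were called in opposite directions, as were JUN and IER3 (r = -0.47). The tested probes most like FOS outside the members were those of AHCYL2, an AHCY-like protein, POC1B, a centriolar protein, and PARP16, a mono-ADP-ribosyltransferase of the endoplasmic reticulum, at r of 0.998, 0.997 and 0.993. DUSP1 was in place 30 of the 13185 other tested probes. FOSB was in place 2101.

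Other immediate-early genes were called in both directions. A list of 49 such genes had 51 tested probes for 44 genes, of which 3 were higher, 4 were lower and 44 did not pass in limma with the block. That is 13.7% called, against 20.3% of all tested probes, and the median log2 difference was -0.01. NR4A2, an orphan nuclear receptor, fell by 0.89 (SE 0.15, n = 3 pairs, limma adjusted p = 0.0061). TNFAIP3, an inhibitor of NF-kappaB, was higher by 0.84 ± 0.20 (SE, limma adjusted p = 0.025), with pair differences of 1.08, 1.29 and 0.16. CCN2, a matricellular factor, fell by 0.70 (limma adjusted p = 0.00792), and ERRFI1, a feedback inhibitor of EGF receptors, fell by 0.56 (limma adjusted p = 0.0456). For MCL1, an anti-apoptotic BCL2 relative, the probes disagreed: ILMN_1803988 was higher by 0.62 (limma adjusted p = 0.0154) and ILMN_1756806 gave -0.33 (0.0934). Without the block, NR4A2 alone of these 51 probes passed in limma (adjusted p = 0.0367). By replicate number, 13 of the 51 probes passed the F test (25.5%, against 9.56% of all tested probes). Among them were FOSL1, KLF4, HBEGF and SRF, with adjusted p-values from 0.0352 to 0.0491 in limma's F test. For this list the count was taken with quantile normalisation alone, and that of the members depended on the scaling.

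Heat shock genes, the other group known to respond to handling, were called in both directions, while most probes of the list were lower in each pair. Of the 23 tested probes, 7, 8 and 5 (30.4%, 34.8% and 21.7%) were higher in the positive array of pairs 1 to 3. The shares over all tested probes were 50.2%, 50.3% and 47.6%. Of 23 tested probes for 20 genes, 3 were higher, 4 lower and 16 did not pass in limma with the block, or 30.4% called against 20.3% of all tested probes, with a median log2 difference of -0.23. The small heat shock protein gene CRYAB was higher by 0.80 ± 0.12 (SE, n = 3 pairs, limma adjusted p = 0.0035), and HSPE1, the mitochondrial co-chaperonin, by 0.75 ± 0.12 (limma adjusted p = 0.00469). HSPA5, the chaperone of the endoplasmic reticulum known as BiP, fell by 0.86 (limma adjusted p = 0.00345), SERPINH1, a collagen chaperone, by 0.77 (limma adjusted p = 0.00587) and DNAJB4, a co-chaperone, by 0.44 (limma adjusted p = 0.0299). The stress-inducible HSPA1A and HSPA1B probes, which can cross-read because the genes are near-identical, gave -0.29 and -0.21 and did not pass (limma adjusted p = 0.128 and 0.209). Without the block, 1 heat shock probe was called higher (HSPE1, limma adjusted p = 0.0279) and 1 lower (HSPA5, 0.0283). By number, 2 of the 23 passed the F test (8.7%), near the background of 9.56%. This count too was taken with quantile normalisation alone.

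**Figure D4:**
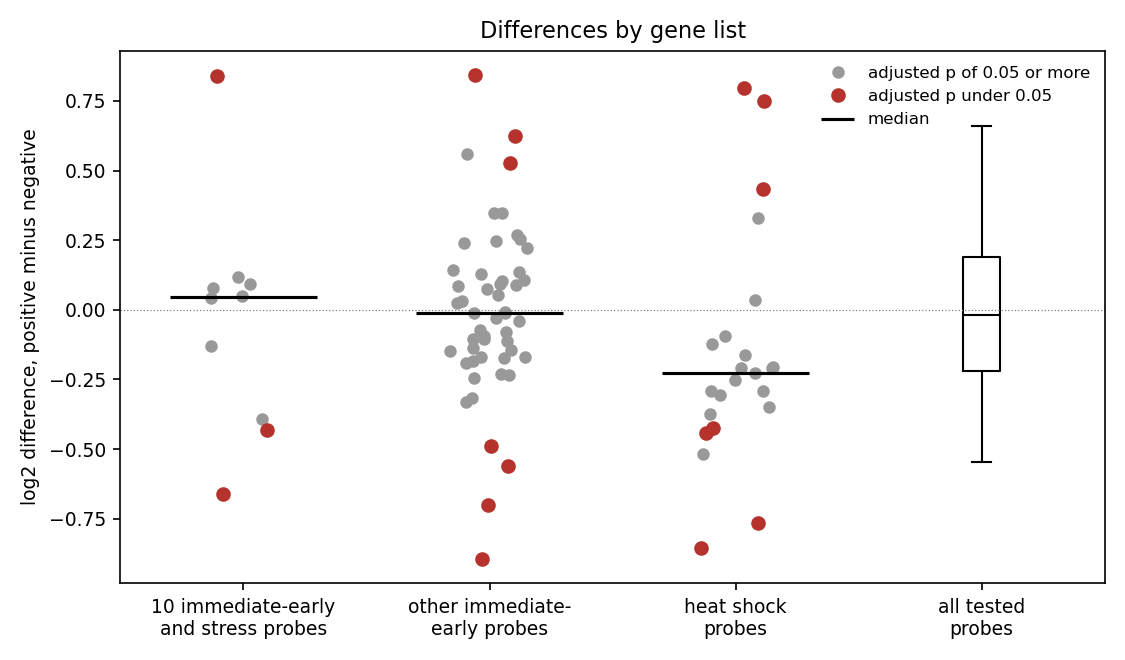
Log2 difference between the fractions (vertical axis, positive minus negative) of every tested probe of the 10 members, of the other immediate-early genes and of the heat shock genes; red points have an adjusted p under 0.05, lines are medians, and the box shows the median, quartiles and the 5th and 95th percentiles of all tested probes. Called probes lie on both sides of 0 in all 3 lists, with medians of 0.05, -0.01 and -0.23.

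The labels were checked on the gene used for the sort. The ABCB1 signal was 408, 514 and 188 in positive and 78.4, 72.0 and 98.98 in negative replicates 1 to 3, with no overlap, and the log2 difference was 1.57 ± 0.20 (SE, n = 3 pairs, limma adjusted p = 0.00204). The arrays detected between 12846 and 13183 of 24526 probes, and their mean signals lay between 668 and 958 with no split by fraction. Of 18 melanocyte lineage probes, 16 were tested, MLANA, PMEL, TYR and SOX10 among them, while S100B was detected on no array. In limma with the block, 4 of the 16 were higher in positive cells (25%, a pair of RAB27A probes, GPR143 and S100A1) and 12 did not pass, where 11.1% of all tested probes were called higher. The median log2 difference of the 16 was 0.12, and their summed signal was 60806 to 75958 in negative and 64818 to 92976 in positive arrays. Of 13 leukocyte marker probes, 4 were tested and the PTPRC and CD3E probes were detected on none. The summed signal of the leukocyte list was 1124 to 1904 in negative and 736 to 1507 in positive arrays. Of the 4 tested, the CD68 pair and CD14 did not pass (log2 differences of 0.42, 0.13 and 0.03). HLA-DRA, a class II antigen presentation gene that melanoma cells can also express, was detected on 3 of 3 negative and 0 of 3 positive arrays (at least 3.15-fold lower in the latter). It entered the test only through the group where it was high, so no p is given for it. The part of these markers in the members' values was not tested. In these bulk samples, fewer cells of a type and less RNA per cell cannot be told apart.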

How the data were processed

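Per the file headers, each of 24526 probes has an intensity and a detection p-value on each of 6 arrays; the deposited intensity values are linear and partly below 0, so a background had been subtracted. A second deposited table holds the same intensity values times 1 factor per array (0.822 to 1.18), which gives all arrays equal means. For scanner software and background method, nothing is given in the sources used here. Every deposited column was used. Signals were corrected with normexp (offset 50), which compresses dim probes, quantile normalised and put on the log2 scale with limma 3.58.1 in R 4.3.3; the authors deposited no log2 values. Probes with a detection p-value under 0.05 on at least 3 of 6 arrays were tested (13186) with lmFit and eBayes, two-sided, Benjamini-Hochberg adjusted over all of them, and called at an adjusted p under 0.05. The errors come from this fit, with 2 residual degrees of freedom per probe and 7.96 in total after borrowing variance across probes. The procedure was also run on simulated data with independent errors of equal size on all arrays. The real arrays may differ from this, so no result here rests on it.

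The replicate number was a fixed block. Across probes, deviations from the group mean correlated at 0.48, 0.64 and 0.48 for equal numbers. For unequal numbers the correlations ran from -0.54 to 0.14 (positive 3 with negative 1 the highest). Deviations within a group of 3 cancel out, so high values for equal numbers push those for unequal ones down, and the contrast is partly built in. The design text speaks of independent assays, and equal numbers were taken as pairs. The labels do not say this outright. The number of arrays limits the precision. With the block, the p-values set the mean difference of the pairs against the variation left after the number, moderated across probes. All pairs come from 1 line, and this variation may be technical.

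All 10 members are named whatever their values, and of each other list the 5 called probes with the largest difference, along with the 3 probes most like FOS over 6 arrays. The second probes of ATF3, KLF6 and MCL1, JUNB and JUND, HSPA1A and HSPA1B, and genes passing by number were named after their values were seen. Probes were named through the platform annotation, updated by gene identifier, which gave 1 gene for 21834 of 24526 probes and none for 2692. Its names can be old. Members and lists were chosen with earlier results of these data known. Fibroblast, endothelial and epithelial markers had 0, 1 and 2 tested probes, none called. Alternatives covered background correction, scaling, filter, block, prior, array weights, thresholds and samples left out.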

Additional observations from a re-analysis of the deposited data

How the results depend on the processing

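The direction of JUN, IER3, ZFP36 and MYC was the same in all 23 other fits, and JUN passed in 16, IER3 in 12 and ZFP36 in 8 of them, MYC in none. Over these fits the log2 difference ranged from 0.64 to 1.04 for JUN (adjusted p from 0.000103 to 0.202), from -1.10 to -0.31 for IER3 (0.000218 to 0.719) and from -0.57 to -0.36 for ZFP36 (0.00399 to 0.361). With no replicate block, limma called 679 probes in all, 0 members higher and 0 lower (at an unadjusted p under 0.05, 1 and 1), 0 other immediate-early probes higher (3 at an unadjusted p under 0.05) and 1 lower, and 1 heat shock probe higher and 1 lower; the estimates are the same and only the error grows.

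The number of members called lower, 2, became 1 with neqc, no background correction, median scaling, 75th percentile scaling, a random replicate block and an adjusted p under 0.01, and 0 with no scaling and on the deposited scaled table (3 at an unadjusted p under 0.05 in each). In the deposited scaled signals, limma called 0 other immediate-early probes higher, with 3 at an unadjusted p under 0.05. The total of 2682 called probes became 1348 with median scaling, 845 with no scaling, 5513 with array weights and 1067 at an adjusted p under 0.01. Leaving out 1 number with the block, or 1 array without it, gave 20 to 2732 called probes, 0 to 1 members higher and 0 to 2 lower. The count of members that differ by number, 6, was 1 with median scaling, 2 with no scaling and 0 on the deposited scaled table, and 2 to 6 with 1 number left out; over all probes, 1261 became 106, 451 and 257, and 144 to 1916. The cause was not tested.

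Of the 7 members that did not pass, MYC kept its sign and the other 6 changed it in at least 1 fit. FOS reached 0.00497 with 75th percentile scaling and 0.11 with array weights, ATF3 -0.0459 and DUSP1 -0.0843 with no scaling, and DUSP1 -0.0373 on the deposited scaled table. With samples left out, FOS ranged from -0.53 to 0.18, FOSB from -0.23 to 0.28, ATF3 from -0.19 to 0.47, EGR1 from -0.0486 to 0.34, KLF6 from -0.0826 to 0.22 and DUSP1 from -0.24 to 0.34. ABCB1 stayed higher in its 3 alternatives, from 1.57 to 2.10. All 10 members were detected on 6 of 6 arrays. The background step still changed the ZFP36 call. Its limma adjusted p was 0.0316 in the main fit, 0.0921 with no background correction and 0.0537 with neqc.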
